A study of Mus musculus with 11 samples.

Results

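The transcripts described here encode the protein subunits of the mitochondrial ribosome, followed over haematopoietic stem cells with and without surface CD41 at rest and after platelet loss. Members were the genes named Mrpl or Mrps with a number, without pseudogene names, whose raw counts added up to at least 110 over the 11 libraries. Of 78 genes so named, 77 were members, out of 49585 entries in the count table, of which 12299 reached the same sum. Of the 77, 49 belonged to the large subunit, 26 to the small subunit, and 2 (Mrpl55 and Mrps36) were left without a class. The lowest sums inside the limit were 393 for Mrps36, 770 for Mrps23 and 792 for Mrpl23. The only named gene outside it, Mrpl53, was listed at 0 in all 11 libraries, and 88.0% of its exon bases also lay in exons of other genes on the same strand in GENCODE M21. A further 5 entries with pseudogene names held 141 counts in sum and were left out.

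The mitochondrial ribosome, or mitoribosome, translates the few proteins that the mitochondrial genome still encodes, all of them subunits of the oxidative phosphorylation complexes. Its RNAs come from mitochondrial DNA, whereas all of its proteins come from nuclear genes, are made in the cytosol and are imported. Some of these proteins descend from those of bacterial ribosomes, and others were classed here as specific to the mitoribosome. Resting haematopoietic stem cells are known for a low output of oxidative phosphorylation, which increases when they are activated.

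The cells came from the bone marrow of C57BL/6 mice and were sorted as lineage-negative, c-Kit+ Sca-1+ CD48- CD150+ cells, then divided by CD41, the integrin alpha chain of platelets and their precursors. Control mice had received rabbit serum, and the other mice were taken 24 h after platelet depletion by an agent that the labels do not name. The labels used here state neither age nor sex. CD41- cells gave 3 control and 3 depleted libraries, and CD41+ cells gave 2 and 3, each from 1000 cells pooled from 3 mice. No batch or pairing of libraries was given.

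Gene counts per library added up to between 0.974 M and 9.95 M, with a median of 3.88 M. A count of 3 corresponded to between 0.301 and 3.08 CPM (counts in each M counted), here before TMM scaling. All CPM values given below are after TMM scaling. Such limits cover counting error only, since amplified reads without molecular identifiers are not independent molecules. All 77 members passed the filter on low counts, and the lowest count of any member in any library was 11. Depth therefore did not leave any member undetected. Itga2b, the gene of CD41, was higher in every CD41+ library (169.8 to 424.6 CPM) than in every CD41- library (37.5 to 98.5 CPM). Among markers of other blood and marrow cells, 12 neutrophil genes summed to between 4419 and 84390 CPM per library, highest in control CD41+ replicate 2. In control mice, each list of such markers summed higher in every CD41+ library than in any CD41- library. Erythroid genes had 2947 to 4804 CPM in CD41- and 5178 to 6477 CPM in CD41+ libraries of control mice. In that order, macrophage genes had 1428 to 1632 and 2228 to 7123 CPM, and lymphoid genes 163.2 to 187.7 and 243.7 to 338.5 CPM. Megakaryocyte genes had 212.0 to 304.5 and 734.8 to 1129 CPM, and only their ranges stayed apart between the fractions after depletion. In CPM, the 11 endothelial and stromal genes summed to between 91.3 and 117.0 in CD41- and 225.0 and 390.9 in CD41+ libraries of control mice, and to between 83.3 and 403.7 and between 391.2 and 694.5 after depletion. In that order of groups, 20 cell-cycle genes summed to between 2835 and 3657, 6817 and 7465, 6924 and 7588, and 7683 and 8809 CPM. The part of these genes in the results was not tested beyond a neutrophil and a cell-cycle score entered as covariates. The cell-cycle score nearly followed the groups, as given below, so that covariate can hardly be separated from group. In bulk libraries, fewer cells of a type and less RNA per cell cannot be told apart.

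Taken as a sum, the members made up the smallest share of gene counts in control CD41- cells and the largest in depleted CD41+ cells. The share was 0.542% ± 0.0388 (SD, n = 3) in control CD41- cells, with 0.573%, 0.553% and 0.498% in replicates 1 to 3. In control CD41+ cells it was 0.652% and 0.534%, so that 1 of these libraries lay inside the range of the CD41- cells and the other above it. In depleted CD41- cells the share was 0.633%, 0.648% and 0.702%, above all control CD41- libraries. In depleted CD41+ cells it was 0.730%, 0.739% and 0.768%, above every other library of the study. The large subunit proteins alone went from 0.372% ± 0.0264 (n = 3) in control CD41- to 0.509% ± 0.0137 (n = 3) in depleted CD41+ cells, and those of the small subunit from 0.165% ± 0.0131 to 0.230% ± 0.00569. Left without its 3 most abundant members, the summed share kept the same order of groups, from 0.499% ± 0.0359 in control CD41- to 0.674% ± 0.0176 in depleted CD41+ cells.

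**Figure D1:**
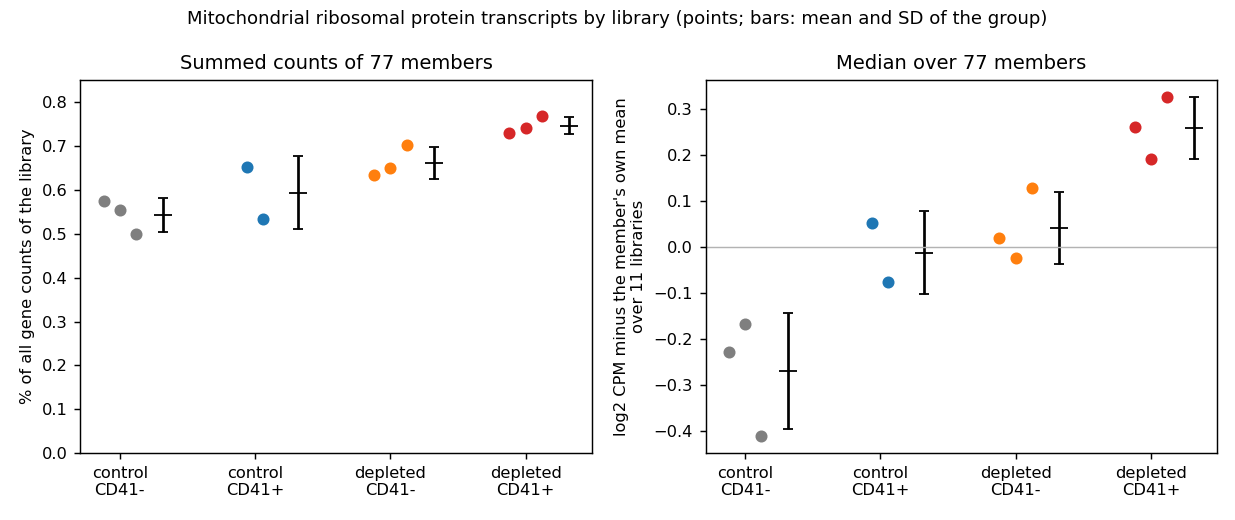
The left panel plots the summed counts of the 77 members as a percentage of the gene counts of each library, and the right panel plots the median over members of the log2 CPM minus each member's own mean over the 11 libraries. Points are libraries, bars are the group mean and SD; the 3 depleted CD41+ libraries lie between 0.730% and 0.768%, and control CD41- replicate 3 is the lowest in both panels.

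The same order was seen when each member counted equally. The median over members of the log2 level minus the member's own mean was between -0.41 and -0.17 in the control CD41- libraries, -0.08 and 0.05 in the control CD41+ libraries, between -0.02 and 0.13 in the depleted CD41- libraries, and between 0.19 and 0.33 in the depleted CD41+ libraries. Over all genes tested this median lay between -0.05 and 0.05 in every library. Control CD41- replicate 3 held the lowest level of 43 of the 77 members, and depleted CD41+ replicates 1 and 3 held the highest level of 23 and 26 members. Within a group, a member varied little. The median SD within groups on the log2 scale was 0.21 over members and 0.42 over all genes tested, at a median level of 77.4 CPM for members and 25.2 CPM for all genes.

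How stem cells respond to the loss of platelets was addressed by comparing depleted with control mice, first on the average of both CD41 fractions. Here 9 of 77 members passed as higher and 0 as lower, beside 6.33% of all 13448 genes called in either direction and 3.6% called higher. Of the members, 69 had a positive log2 fold change, and the median over members was 0.32 beside -0.01 over all genes. At an unadjusted p below 0.05, 35 members were higher and 1, Mrpl52, was lower (46.8% of members beside 21.3% of all genes in either direction). The called members were spread over the classes. In the large subunit they were 2 of 29 proteins of bacterial descent and 3 of 20 classed as specific to the mitoribosome. In the small subunit they were 2 of 16 of bacterial descent and 2 of 10 classed as specific. Without depleted CD41+ replicate 1, the library with the fewest counts, 12 members were called. The count fell to 5 when control CD41- replicate 1 was left out, to 4 for control CD41+ replicate 1 or control CD41- replicate 3, to 2 for depleted CD41- replicate 1 or replicate 3, and to 1 when either control CD41+ replicate 2 or depleted CD41+ replicate 3 was left out. DESeq2 called 19 members higher and 1 lower, but the share of all genes that it called is not given here. No member passed once a score of cell-cycle genes entered the model, and neither did any other gene. That score was lower in every control library than in every depleted library, so this fit can hardly separate it from depletion. In the same comparison 15 of 20 cell-cycle genes were higher (median 0.80), and 0 of 10 endothelial and stromal genes passed (median 1.44).

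**Figure D2:**
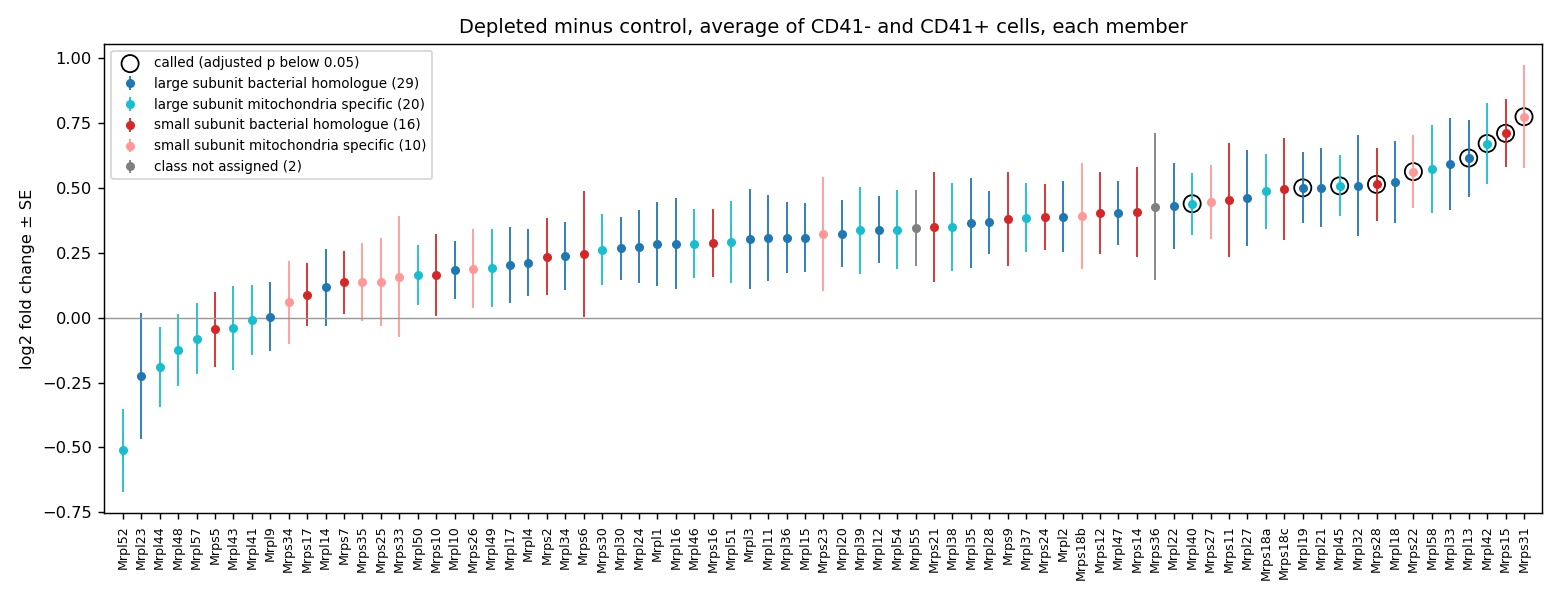
Each of the 77 members is plotted by its log2 fold change, depleted minus control, averaged over both fractions, with its SE from the edgeR fit, and coloured by class. Circles mark the 9 called members; values run from -0.51 for Mrpl52 to 0.78 for Mrps31, and 69 of 77 lie above 0.

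Among the called members the smallest p belonged to Mrps15 (ENSMUSG00000028861, GRCm38 chromosome 4, 126046925 to 126055532, plus strand), a small subunit protein with a bacterial counterpart that binds the ribosomal RNA early in assembly. In control mice its level was 56.1, 54.7 and 48.9 CPM in CD41- cells and 67.3 and 73.0 CPM in CD41+ cells. After depletion it was 99.4, 77.7 and 103.3 CPM in CD41- cells and 109.0, 97.6 and 115.1 CPM in CD41+ cells. All 6 depleted libraries were above all 5 control libraries. The average increase was 1.64-fold, a log2 fold change of 0.71 ± 0.13 (SE, adjusted p = 0.00694), and Mrps15 passed in all 11 fits that left out 1 library.

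Mrpl45 (ENSMUSG00000018882, chromosome 11, 97315716 to 97329920, plus strand) encodes the large subunit protein that sits at the exit of the nascent chain and attaches the mitoribosome to the inner membrane. In control mice it was at 66.8, 63.9 and 56.4 CPM in CD41- cells and 93.3 and 83.9 CPM in CD41+ cells. In depleted mice it was at 105.1, 99.9 and 93.7 CPM in CD41- cells and 113.5, 109.6 and 113.9 CPM in CD41+ cells. Again no depleted library fell below a control library, although control CD41+ replicate 1 and depleted CD41- replicate 3 nearly met. The average increase was 1.42-fold (0.51 ± 0.12, adjusted p = 0.0217).

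Mrpl42 (ENSMUSG00000062981, chromosome 10, 95480805 to 95501940, minus strand), a large subunit protein found only in mitochondria, had 100.4, 99.7 and 82.7 CPM in CD41- cells of control mice and 142.1 and 81.0 CPM in their CD41+ cells. After depletion the CD41- cells had 147.0, 126.7 and 142.6 CPM and the CD41+ cells 189.1, 163.5 and 224.3 CPM. The groups separated within each fraction, while control CD41+ replicate 1 reached the level of depleted CD41- cells. The average increase was 1.59-fold (0.67 ± 0.15, adjusted p = 0.0219).

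Mrps31 (ENSMUSG00000031533, chromosome 8, 22411361 to 22429665, plus strand) and Mrps22 (ENSMUSG00000032459, chromosome 9, 98588730 to 98601660, minus strand) encode small subunit proteins found only in mitochondria. Mrps31 had the largest increase of any member in this comparison, 1.71-fold (0.78 ± 0.20, adjusted p = 0.0339), from 27.8, 30.9 and 31.1 CPM to 39.8, 36.2 and 57.7 CPM in CD41- cells, and from 25.4 and 24.8 CPM to 67.8, 41.2 and 42.8 CPM in CD41+ cells. All depleted libraries exceeded all control libraries, with 1 high library in each depleted group. Mrps22 went from 50.9, 57.1 and 52.3 CPM to 67.1, 76.4 and 88.9 CPM in CD41- cells and from 62.0 and 76.4 CPM to 122.4, 91.9 and 101.4 CPM in CD41+ cells (0.56 ± 0.14, adjusted p = 0.0301). Its depleted libraries were above the control libraries within each fraction.

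Mrpl13 (chromosome 15, 55534094 to 55557748, minus strand), a large subunit protein of bacterial descent, went from 75.6, 69.6 and 72.2 CPM to 102.3, 99.5 and 134.6 CPM in CD41- cells. In CD41+ cells it went from 91.9 and 60.4 CPM to 123.5, 100.3 and 124.7 CPM, and no depleted library overlapped a control library (0.62 ± 0.15, adjusted p = 0.026). The remaining 3 called members were Mrps28, a small subunit protein related to bacterial S1 (0.51 ± 0.14, adjusted p = 0.0433), Mrpl40, found only in mitochondria (0.44 ± 0.12, adjusted p = 0.0439), and Mrpl19, of bacterial descent (0.50 ± 0.14, adjusted p = 0.0453). Of the 11 fits that left out 1 library, Mrpl45, Mrpl42 and Mrpl13 kept an adjusted p below 0.05 in 7 each, Mrps22 in 4, Mrps31 in 3, Mrps28 and Mrpl19 in 2 each and Mrpl40 in 1. Mrpl19 also shared 36.0% of its exon bases with Gcfc2 on the opposite strand, and since no source used here states the strand setting, reads of the pair cannot be told apart with certainty.

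**Figure D3:**
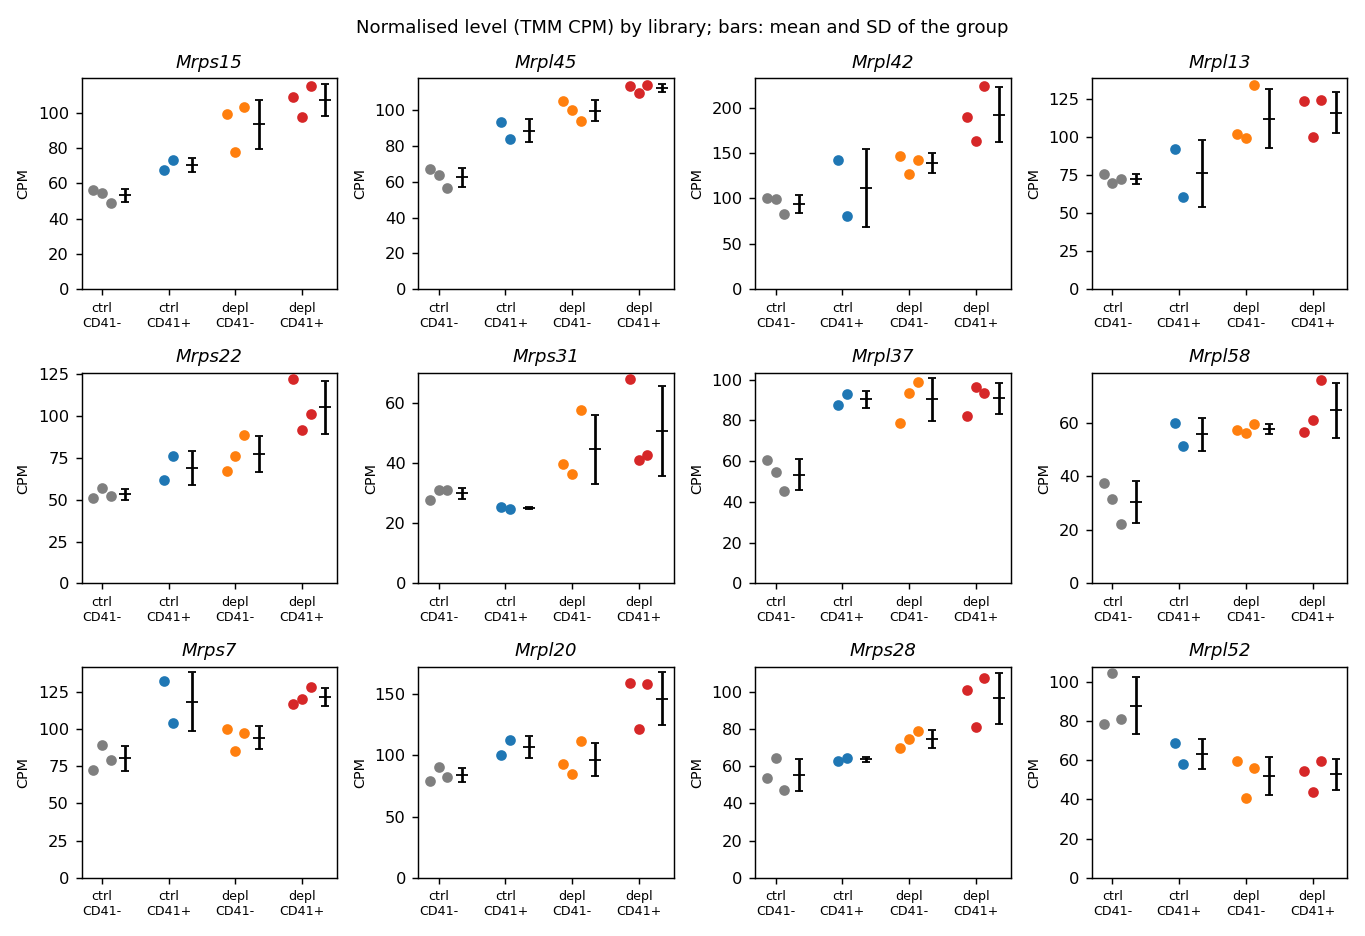
Normalised levels (TMM CPM, axes from 0) of 12 members are plotted by library (points), with the mean and SD of each group. Mrps15, Mrpl45, Mrpl13, Mrps31 and Mrps28 have all depleted libraries above all control libraries, Mrpl37 and Mrpl58 are low in control CD41- cells only, and Mrpl52 is highest there.

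The stretch of 120 bases before the start site is printed for 5 members called after depletion, to show which elements known from nuclear genes of mitochondrial proteins lie there. The windows come from RefSeq on GRCm38.p6 and are written 5′ to 3′ on the strand of the gene. Capitals mark TGCGCA, a half-site of nuclear respiratory factor 1 (NRF1), and the ETS element CCGGAAG, the kind bound by GABP. The longer NRF1 site GCGCATGCG was not marked.
Mrps15, chr4:126046808-126046927, plus strand: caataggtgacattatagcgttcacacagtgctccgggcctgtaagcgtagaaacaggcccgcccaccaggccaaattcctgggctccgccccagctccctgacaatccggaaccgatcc
Mrpl45, chr11:97315596-97315715, plus strand: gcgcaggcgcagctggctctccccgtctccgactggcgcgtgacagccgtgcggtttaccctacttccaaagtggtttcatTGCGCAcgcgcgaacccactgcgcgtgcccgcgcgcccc
Mrps22, chr9:98601680-98601799, minus strand: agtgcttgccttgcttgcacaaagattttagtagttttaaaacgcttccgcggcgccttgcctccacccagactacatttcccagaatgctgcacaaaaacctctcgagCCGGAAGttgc
Mrpl58, chr11:115403632-115403751, plus strand: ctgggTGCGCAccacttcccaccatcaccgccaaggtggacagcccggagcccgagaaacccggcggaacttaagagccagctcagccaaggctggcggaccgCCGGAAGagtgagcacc
Mrpl42, chr10:95501950-95502069, minus strand: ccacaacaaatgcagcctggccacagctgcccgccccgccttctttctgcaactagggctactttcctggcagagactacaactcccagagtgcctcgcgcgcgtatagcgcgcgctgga
Neither element, as spelled, lies in the stretches of Mrps15 and Mrpl42, which says only that these letters are not there. The same holds for Mrps31, Mrpl37 and Mrpl40, which were also called after depletion and whose stretches are not printed. Mrpl58 holds both, Mrpl45 the NRF1 half-site and Mrps22 the ETS element.

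Over the members as a group, 68 of 77 had at least 1 RefSeq promoter window (250 bases before to 50 after the start), which gave 74 windows, searched on both strands. The ETS element CCGGAAG was in 33.8% of member windows, in 17.5% of 12680 windows of genes tested and in 8.86% of all 32851 windows. The NRF1 half-site TGCGCA was in 29.7% of member windows beside 13.4% and 7.76%, and the longer NRF1 site GCGCATGCG in 9.46% beside 3.51% and 1.75%. The YY1 element AAGATGGCG was in 10.8% beside 2.97% and 1.4%, and the overlapping core ATGGCGG in 16.2% beside 7.79% and 4.05%. The GC box GGGCGG, bound by Sp1, was in 52.7% of member windows and in 60.6% of windows of genes tested, and the E-box CACGTG, bound by Myc and related factors, in 9.46% and 9.96%. The median GC content was 58.5% in member windows, 60.3% in windows of genes tested and 52.7% in all windows. Of the 77 members, 35 have a neighbour on the opposite strand whose start is within 1000 bases and whose counts summed to at least 110. The share over all genes was not taken. Such pairs may overlap, as do Mrpl46 and Mrps11, whose starts are 412 bases apart. They share 12.2% and 7.97% of their exon bases with each other. Windows of close pairs can therefore overlap.

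In CD41- cells alone, 4 of 77 members were higher after depletion and 0 lower, beside 3.19% of all genes called in either direction and 2.3% called higher. The log2 fold change was positive for 67 members, with a median of 0.31 beside -0.03 over all genes. Mrps15 (0.81 ± 0.17, adjusted p = 0.0198) and Mrpl45 (0.68 ± 0.15, adjusted p = 0.0296) were joined by Mrpl37 and Mrpl58. Both are large subunit proteins classed as specific to the mitoribosome. Mrpl37 (chromosome 4, 107055874 to 107066868, minus strand) went from 60.5, 54.4 and 45.2 CPM in control to 78.7, 93.2 and 98.8 CPM in depleted CD41- cells (0.76 ± 0.18, adjusted p = 0.0322). Mrpl58 (chromosome 11, 115403752 to 115412674, plus strand), which carries peptidyl-tRNA hydrolase activity and can release stalled chains, went from 37.4, 31.7 and 22.1 CPM to 57.2, 56.3 and 59.6 CPM (1.90-fold, 0.93 ± 0.22, adjusted p = 0.0384). For both, every depleted CD41- library was above every control CD41- library, and the 2 control CD41+ libraries (87.4 and 93.1 CPM for Mrpl37, 60.1 and 51.4 CPM for Mrpl58) lay near the depleted level. None of the 4 members stayed called without control CD41- replicate 3, the library with the lowest levels, nor without depleted CD41- replicate 1 or replicate 3. Without control CD41- replicate 2 and depleted CD41- replicate 2, 2 and 1 were called. How many of all genes were called in these fits is not given here. With the cell-cycle score as covariate Mrpl37 and Mrpl58 turned to -0.26 and -0.50, and no gene passed. That score was 6.52 to 6.96 in control and 8.09 to 8.19 in depleted CD41- cells, so the fit can hardly separate it from depletion.

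In CD41+ cells alone, 0 of 77 members passed, beside 0.104% of all genes. At an unadjusted p below 0.05, 15 members were higher and 0 lower in the edgeR fit (19.5% beside 12.2% of all genes in either direction), and DESeq2 called 0 members. The median over members was 0.33 beside -0.01, and 67 of 77 were positive, as in CD41- cells. The smallest p values belonged to Mrpl42 (0.79 ± 0.23, adjusted p = 0.203), Mrpl47, of bacterial descent (0.62 ± 0.19, adjusted p = 0.203), Mrps31 (0.98 ± 0.30, adjusted p = 0.217) and Mrps15 (0.61 ± 0.20, adjusted p = 0.236). Mrpl47 was at 143.5 and 134.9 CPM in control and 260.3, 179.3 and 208.6 CPM in depleted CD41+ cells, so the groups did not overlap, but 24.2% of its exon bases also belong to Actl6a or Ndufb5. The control group here held only 2 libraries.

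The responses of the fractions share no library, but depleted CD41- and CD41+ libraries of consecutive title numbers deviated together from their group means (correlations of 0.228, 0.343 and 0.207), and the labels do not say whether such libraries came from the same mice. Of 77 members, 63 (81.8%) had a positive log2 fold change in both CD41- and CD41+ cells, beside 30.3% of all genes tested. Across members, the log2 fold changes of the fractions had a Pearson r of 0.51 (Spearman 0.43) beside 0.25 over all genes, a description over genes that share the libraries of each fraction. In CD41- cells, 35 members (45.5%) had all depleted libraries above all control libraries, beside 12.9% of genes tested, and in CD41+ cells another 35 (not all the same genes) beside 13.2%. In both fractions this held for 21 members (27.3%) beside 4.42% of genes. For 10 members, Mrpl13, Mrpl21, Mrpl30, Mrpl40, Mrpl45, Mrps15, Mrps18a, Mrps27, Mrps28 and Mrps31, all 6 depleted libraries were above all 5 control libraries, beside 2.03% of genes tested.

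**Figure D4:**
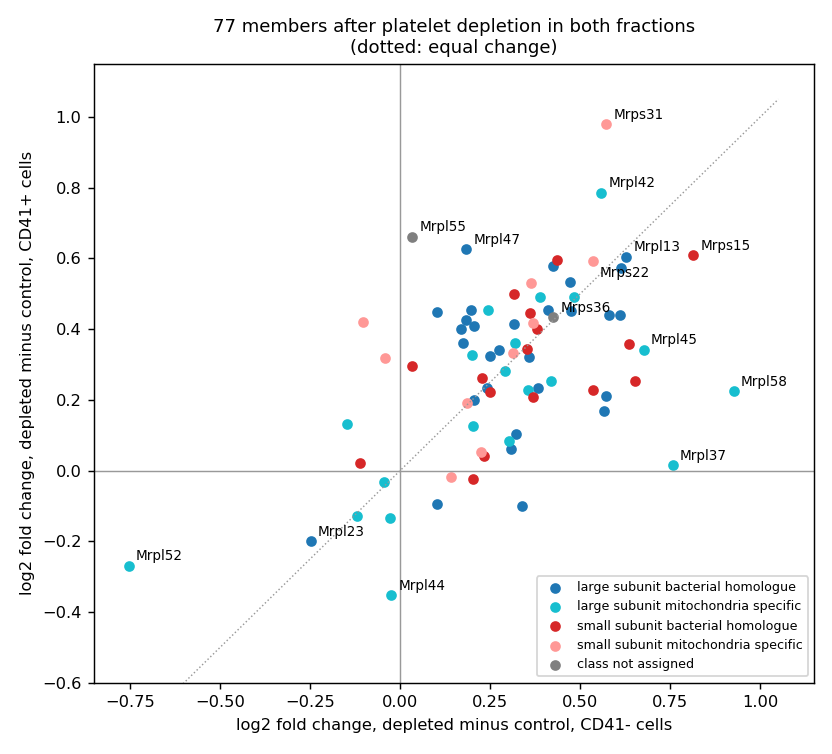
Each point is 1 of the 77 members, placed by its log2 fold change after depletion in CD41- cells (x axis) and in CD41+ cells (y axis), which share no library, and coloured by class. The upper right part holds 63 members and the lower left part 6, with Mrpl52 farthest left, Mrps31 highest and Mrpl58 farthest right, followed by Mrps15.

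The 6 members with a negative value in both fractions were Mrpl23, Mrpl43, Mrpl44, Mrpl48, Mrpl52 and Mrpl57, all of the large subunit, and edgeR called none of them. Mrpl52 (chromosome 14, 54426909 to 54429756, plus strand), found only in mitochondria, had the lowest average value of the 77. In CD41- cells it had 78.4, 104.4 and 80.8 CPM in control mice against 59.4, 40.8 and 55.8 CPM after depletion. In CD41+ cells it had 68.7 and 57.8 CPM in control mice against 54.5, 43.9 and 59.7 CPM after depletion. In CD41- cells the depleted libraries were all below the control libraries (-0.75 ± 0.21, adjusted p = 0.0722), which held for 2 members, Mrpl52 and Mrpl41, beside 12.1% of genes tested, while in CD41+ cells it held for 0 members beside 13.8% (Mrpl52 at -0.27 ± 0.24, adjusted p = 0.697). On average the value was -0.51 ± 0.16 (adjusted p = 0.0741). DESeq2 called Mrpl52 lower in both, with -0.76 ± 0.23 (adjusted p = 0.0209) in CD41- cells and -0.51 ± 0.18 (adjusted p = 0.0407) on average, and none of the other 5. Mrpl23, a large subunit protein near the exit of the nascent chain, had -0.25 ± 0.32 and -0.20 ± 0.37 at only 12.1 to 21.9 CPM, and Mrpl44, which has a fold related to RNase III, had -0.02 ± 0.20 and -0.35 ± 0.23. These members were singled out after their values were seen.

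How CD41+ stem cells differ from CD41- ones was addressed on the average over treatments and then within each treatment. On average 2 of 77 members, Mrps7 and Mrpl20, were higher in CD41+ cells and 0 lower, beside 5.38% of all genes called and 2.73% called higher, so that the share of members called (2.6%) was near that of all genes called higher. The members' median was 0.24 beside -0.03 over all genes, 70 of 77 were positive, and 23 had an unadjusted p below 0.05, all of them higher (29.9% beside 23.1% of all genes in either direction). In the same comparison 16 of 20 cell-cycle genes (median 0.69) and 5 of 10 endothelial and stromal genes (median 2.33) were higher. Mrps7 (ENSMUSG00000046756, chromosome 11, 115603925 to 115608036, plus strand), a small subunit protein of bacterial descent that organises the head of the subunit, was at 132.8 and 104.5 CPM in CD41+ against 72.3, 89.5 and 79.0 CPM in CD41- cells of control mice. After depletion the CD41+ cells had 116.8, 120.1 and 128.5 CPM and the CD41- cells 100.1, 85.4 and 97.2 CPM. CD41+ libraries were above CD41- libraries within each treatment (0.47 ± 0.12, adjusted p = 0.0398). Mrps7 shares 11.9% of its exon bases with Gga3 and Mif4gd.

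Mrpl20 (ENSMUSG00000029066, chromosome 4, 155802878 to 155809975, plus strand), of bacterial descent, was at 100.2 and 113.0 CPM in CD41+ against 79.5, 90.6 and 82.7 CPM in CD41- cells of control mice. After depletion these levels were 159.1, 121.7 and 158.8 CPM against 93.1, 85.2 and 111.6 CPM. Again the CD41+ libraries were above the CD41- libraries within each treatment (0.47 ± 0.13, adjusted p = 0.0485). Of the 11 fits that left out 1 library, Mrps7 passed in 2, with control CD41- replicate 2 or depleted CD41+ replicate 1 left out, and Mrpl20 in 1, with depleted CD41+ replicate 2 left out. Neither passed with the neutrophil or the cell-cycle score as covariate.

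In control mice 0 of 77 members passed in the CD41 comparison, beside 2.62% of all genes, with 8 higher and 0 lower at an unadjusted p below 0.05, a share (10.4%) below that of all genes in either direction (18.9%). The median was 0.24 beside -0.03 over all genes, and 66 were positive. The smallest p values were those of Mrpl37 (0.76 ± 0.19, adjusted p = 0.0543), Mrpl58 (0.88 ± 0.25, adjusted p = 0.0764), Mrps7 (0.56 ± 0.18, adjusted p = 0.11) and Mrpl28 (0.55 ± 0.18, adjusted p = 0.112). DESeq2 called 4 members in this comparison, where the share of all genes that it called is not given here. The summed share of the members did not separate these groups, since its log2 ratio was 0.13 with all libraries and -0.02 without control CD41+ replicate 1. In depleted mice 0 of 77 passed, beside 0.193% of all genes, with 10 higher and 0 lower at an unadjusted p below 0.05 (10 of 77 beside 9.18% of all genes in either direction). The median was 0.20 beside -0.03, and 70 were positive. Mrpl20 (0.59 ± 0.17, adjusted p = 0.219), Mrpl47 (0.52 ± 0.16, adjusted p = 0.281), Mrps10 (0.67 ± 0.21, adjusted p = 0.285) and Mrpl36 (0.49 ± 0.18, adjusted p = 0.387), all of bacterial descent, came first. Over control and depleted mice, which share no library, 61 members (79.2%) were positive in both, beside 31.1% of genes tested. CD41+ libraries lay above CD41- libraries for 25 members in control mice, beside 17.4% of genes tested, for 26 in depleted mice, beside 8.35%, and for 12 (15.6%) in both, beside 3.81%.

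**Figure D5:**
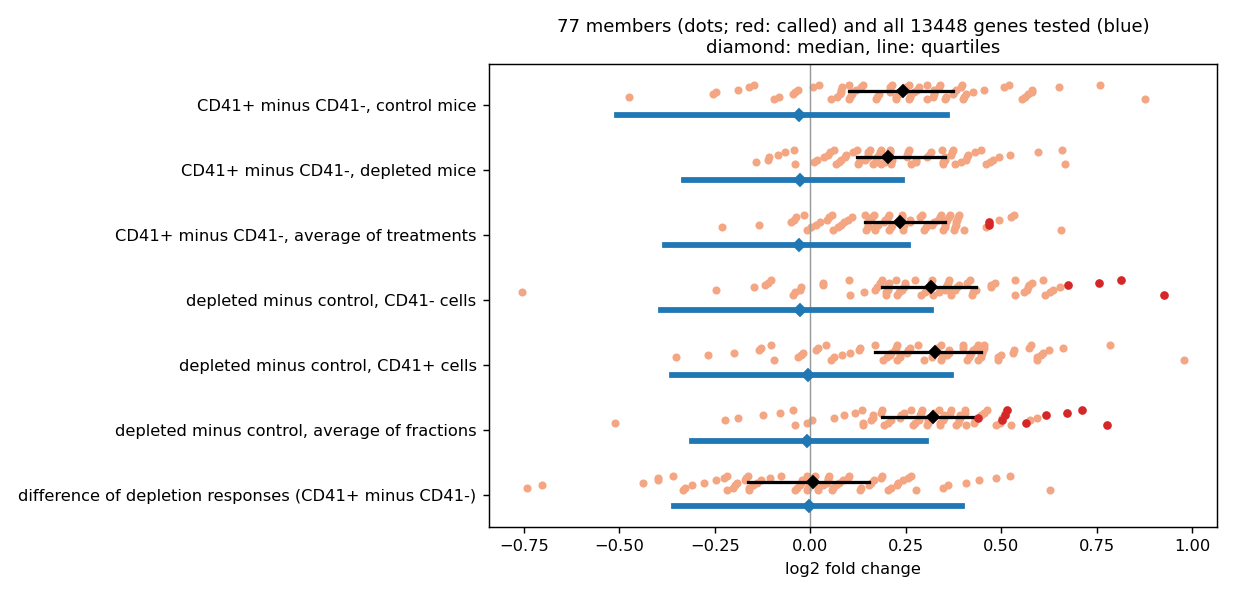
For each of the 7 comparisons, dots are the log2 fold changes of the 77 members (red where called), with the members' median and quartiles in black and those of all 13448 genes tested in blue. The members' median lies between 0.20 and 0.33 in the first 6 comparisons and at 0.01 in the difference of responses, while that of all genes lies between -0.03 and -0.003 throughout.

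Whether the fractions respond differently to depletion was tested as a difference of responses. No member passed, beside 0% of all genes, and at an unadjusted p below 0.05 there were 2 members, 1 in each direction (2.6% beside 6.13% of all genes). The median was 0.01 and 40 of 77 were positive. Mrpl37 had the smallest p, with -0.74 ± 0.26 (adjusted p = 0.644), followed by Mrpl55 at 0.63 ± 0.29, Mrpl58 at -0.70 ± 0.33 and Mrpl47 at 0.44 ± 0.25. Mrpl37 was at 82.3, 96.4 and 93.5 CPM in depleted CD41+ cells, within the range of depleted CD41- cells and around the control CD41+ libraries, so only its control CD41- libraries stood apart. Mrpl55 (chromosome 11, 59202486 to 59206134, plus strand) was at 36.6 to 48.9 CPM in the 8 libraries of the other groups and at 60.1, 63.5 and 64.7 CPM in depleted CD41+ cells. These patterns did not pass the test, which does not show that the fractions respond alike.

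To compare members with each other, levels were divided by the length of the principal transcript. Mean CPM per kb over the libraries spanned 16.6-fold around a median of 51.6. Mrpl42 stood first with 204.6 CPM per kb, followed by Mrpl28 (158.5), Mrpl33 (158.0), Mrpl52 (153.2) and Mrpl20 (142.2). The lowest were Mrps23 (12.7), Mrps36 (12.4) and Mrps26 (12.3). These ends depend on which transcript is taken: with the union of all exons, a length chosen after the files were seen, Mrpl42 ranked 33 and Mrpl33 ranked 72 of 77, while Mrpl28 ranked 1. Mrps36, now known mainly as a subunit of the 2-oxoglutarate dehydrogenase complex rather than of the mitoribosome, ranked 76 and 75 on the 2 lengths, and its level was 5.77 ± 0.476, 9.09 ± 3.01, 7.78 ± 1.08 and 12.3 ± 1.95 CPM in the order control CD41-, control CD41+, depleted CD41- and depleted CD41+ (n = 3, 2, 3 and 3).

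The 3 paralogues of bacterial S18 occupy different places, Mrps18a in the large subunit and Mrps18b and Mrps18c in the small one. In control CD41- cells their levels were 51.0 ± 2.38, 21.6 ± 6.58 and 43.3 ± 8.20 CPM, and in depleted CD41+ cells 81.7 ± 15.0, 36.1 ± 0.993 and 70.0 ± 17.1 CPM. On the average after depletion they had log2 fold changes of 0.49 ± 0.15 (adjusted p = 0.0642), 0.39 ± 0.21 (adjusted p = 0.293) and 0.50 ± 0.20 (adjusted p = 0.161), so none passed. Mrpl12, the stalk protein that has also been reported to bind the mitochondrial RNA polymerase, had a mean of 97.7 ± 20.7 CPM (SD, n = 3) in CD41- cells of control mice and 159 ± 2.19 CPM (SD, n = 3) in CD41+ cells of depleted mice (0.34 ± 0.13 on average after depletion, adjusted p = 0.144). Mrps12, a protein of the decoding centre that faces the synthetase gene Sars2 across 172 bases, had 0.40 ± 0.16 (adjusted p = 0.152).

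Other genes of mitochondrial translation were read from lists of their own. Of 7 mitoribosome proteins with other names, such as Dap3 and Ptcd3, 0 passed in any comparison, and 6 were positive in the average after depletion. Among 16 translation factors, 1 (6.25%) was higher on average after depletion, beside 6.33% of all genes called in either direction and 3.6% called higher. It was C1qbp, a matrix protein needed for mitochondrial translation (0.55 ± 0.13, adjusted p = 0.0242). Of 25 genes of mitoribosome assembly and rRNA modification, 16 of mitochondrial DNA transcription and replication and 13 regulators, 0 passed in any comparison.

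Transcripts encoded by mitochondrial DNA, the ones the mitoribosome translates, showed another order of groups. Of 13 such genes, 7 passed the filter on low counts and were tested. On average 5 of these were lower and 0 higher in CD41+ than in CD41- cells, beside 5.38% of all genes, with a median of -0.78. The summed share of all 13 was 3.50% ± 0.331 (n = 3) in control CD41- and 1.73% ± 0.520 (n = 2) in control CD41+ cells. It was 3.22% ± 0.0899 (n = 3) in depleted CD41- and 2.15% ± 0.512 (n = 3) in depleted CD41+ cells. Since the genes not tested had failed the filter on low counts, this share does not measure mitochondrial messages as a whole. After depletion, mt-Co1 was lower on average (-0.46 ± 0.12, adjusted p = 0.0385) and the other 6 genes tested did not pass. With these genes and the neutrophil markers taken out of the totals, the summed share of the members still ran from 0.569% ± 0.0380 in control CD41- to 0.793% ± 0.0355 in depleted CD41+ cells.

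Genes of the cell cycle moved with the members in part. A list of 20 summed to 3337 ± 440.1 CPM in control CD41-, 7141 ± 458.7 CPM in control CD41+, 7358 ± 375.8 CPM in depleted CD41- and 8359 ± 596.2 CPM in depleted CD41+ cells (n = 3, 2, 3 and 3). Of these genes 17 were higher in control CD41+ than in control CD41- cells and 17 were higher in CD41- cells after depletion, whereas in CD41+ cells after depletion 0 passed and their median was 0.24. With a score of these genes as covariate the members' median was 0.04 in the CD41 comparison of control mice, 0.11 and 0.18 after depletion in CD41- and CD41+ cells, and 0.15 on average. Stem cell markers went the other way in part: of 12, 4 were lower and 0 higher on average after depletion, among them Hlf (-0.70 ± 0.16, adjusted p = 0.0233). In CD41+ against CD41- cells, 5 of the 12 were lower and 1, Slamf1, was higher on the average of treatments (median -0.69). The sort gene Ly6a was among those lower (-1.47 ± 0.26, adjusted p = 0.00794). The fractions thus differed in stem cell markers too. The cell-cycle score ran from 6.52 to 6.96 in control CD41- libraries and was 7.82 and 7.99 in control CD41+ libraries. In depleted libraries it ran from 8.09 to 8.41. It thus nearly followed the groups, so the smaller medians cannot be assigned to cell-cycle genes rather than to group. The part of dividing cells in the members' levels was not tested in another way.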

How the data were processed

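Polyadenylated RNA of 1000 sorted cells per library was copied by template switching, amplified and tagmented, per the labels' protocols. The deposited values are raw counts per gene; the authors used cutadapt, STAR and HTSeq 0.6.1p1, with GRCm38 and mm10 as builds, per the submitters' processing notes. No source used here states the strand setting or the annotation release.

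Members were found by symbol in GENCODE M21. Members and lists were chosen with earlier results of these data known. Counts passing filterByExpr (minimum count 10, minimum total 15; 13448 genes, 99.7% of counts) were scaled by TMM and fitted with the robust quasi-likelihood model of edgeR 4.0.16 in R 4.3.3, with 1 coefficient per group over all 11 libraries and Benjamini-Hochberg adjustment at 0.05 over all genes tested. The 7 comparisons were CD41+ minus CD41- and depleted minus control, each in both subgroups and on average, and the difference of responses. The SE was derived from the log2 fold change and the F statistic. The procedure was tested on simulated data.

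Alternatives were DESeq2 1.42.0, limma 3.58.1 voom with quality weights, RLE factors or library size in place of TMM, a fit without the filter or without robust estimation, only the groups compared, a replicate block, neutrophil and cell-cycle scores as covariates, and leaving out each library. Named members were those called (up to 12 in a direction), otherwise the 4 smallest p, the 5 highest and 3 lowest per kb, the S18 paralogues, Mrpl12 and Mrps12. The list of mitochondrial aminoacyl-tRNA synthetases is not reported here. Promoter windows came from RefSeq (GRCm38.p6), and matplotlib 3.10.9 (Python 3.11.15) drew the figures.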

Additional observations from a re-analysis of the deposited data

How the results depend on the processing

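The medians over members stayed positive in the 6 comparisons other than the difference of responses under every setting tried. Leaving out 1 library at a time gave 0 to 1 called members in the CD41 comparison of control mice. It gave 0 in that of depleted mice and 0 to 3 on the average of treatments. After depletion it gave 0 to 5 in CD41- cells, 0 in CD41+ cells and 1 to 12 on their average. For the interaction it gave 0. The share of all genes called in each of these fits is not given here. The corresponding medians ran from 0.17 to 0.31, 0.17 to 0.28, 0.19 to 0.27, 0.25 to 0.35, 0.24 to 0.37, 0.28 to 0.38 and -0.05 to 0.08. The log2 ratio of summed shares ran from -0.020 to 0.27 and from 0.14 to 0.22 for CD41 in control and depleted mice, and from 0.23 to 0.33 and from 0.19 to 0.48 for depletion in CD41- and CD41+ cells, with both extremes of the first and last from leaving out control CD41+ replicate 1 or 2. With the cell-cycle score as covariate, 0 members were called after depletion in CD41- cells and on both averages, where no gene passed, and medians were 0.041 for CD41 in control mice, 0.11 and 0.18 after depletion in CD41- and CD41+ cells, 0.15 on their average and 0.13 in the difference of responses. Under it Mrpl37 and Mrpl58 turned to -0.083 and -0.29 for CD41 in control mice and to -0.26 and -0.50 after depletion in CD41- cells. In the difference of responses Mrpl58 turned to 0.29. The cell-cycle score nearly followed the groups, so these fits can hardly separate it from group. DESeq2 called 4 members for CD41 in control mice, 11 on the CD41 average and 20 on the depletion average. The share of all genes called is not given here for DESeq2 or the other settings below. For CD41 in control mice RLE factors called 1 member. On the CD41 average, library size alone and the neutrophil score called 0, and no filter, the fit without robust, voom and the replicate block 1 each. After depletion in CD41- cells, library size alone and a fit of the groups compared called 2. Library size alone gave a median of 0.13 for CD41 in control mice, while that of all genes moved from -0.03 to -0.15. The cause of these changes was not tested. The block paired consecutive title numbers, whose deviations from the group means correlated at 0.0801, 0.0977, 0.228, 0.343 and 0.207; the labels state no pairing, and the block could not be fitted to the depletion comparisons, which it confounds. A fit with only the control CD41 groups or only the CD41+ groups rested on 2 libraries in 1 group.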
